A study of Mus musculus with 6 samples.

Results

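Glutathione peroxidases and peroxiredoxins are the peroxide-reducing enzymes of the cell, and 10 of their genes were followed here through NK cell maturation: Gpx1, Gpx3, Gpx4, Gpx7 and Gpx8, and Prdx1, Prdx2, Prdx4, Prdx5 and Prdx6. The genes were chosen by family membership, with earlier results of these data known: Gpx8 had stood out for its high value in the CD27-CD11b+ subset, so the levels of the 10 are given as a description. No p-value of a member is printed, and counts of members past a test stand beside the share of all genes as a description too. All probe sets of these genes in the deposited value table were taken, out of 18193 genes measured by a probe set with 1 gene symbol. Of the 10 genes, 7 had such a probe set, 12 probe sets in all. Prdx1 was listed solely on 5 probe sets shared with the predicted gene Gm21399, and no probe set was named for Prdx5 or Prdx6, so these 3 have no value of their own.

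The cells were NK1.1+ splenocytes of RAG-/- mice, which lack mature T and B cells, so every subset shares that deficiency. They were sorted by flow cytometry into 3 subsets, CD27+CD11b-, CD27+CD11b+ and CD27-CD11b+, commonly placed in this order of maturation, with 2 arrays each and no treatment named. No source used here gives the age of the mice, the RAG gene deleted or whether animals were pooled. The series design calls the 2 samples of a subset independent, but whether they are separate animals is not said, so SDs and p-values measure the spread between these arrays, which may be technical.

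Hydrogen peroxide and lipid hydroperoxides are by-products of respiration, NADPH oxidases and oxidative protein folding, and they also act as signals. Glutathione peroxidases reduce them with electrons from glutathione. In Gpx1, Gpx3 and Gpx4 the reactive residue is selenocysteine, an amino acid inserted at a recoded stop codon, while Gpx7 and Gpx8 carry cysteine and work in the endoplasmic reticulum, where disulfide bonds are made. Peroxiredoxins use a reactive cysteine that thioredoxin usually regenerates, and Prdx4 is the member of the endoplasmic reticulum. In lymphocytes Gpx4 is known for protecting membranes from lipid peroxidation, and Prdx1 and Prdx2 for removing peroxide in the cytosol.

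Levels are log2 expression values as deposited. A difference is the gap between 2 subset means on the log2 scale, given with its standard error (SE) from a limma fit over all genes. A level under 6.40 is called near background: 95% of 53 genes of other tissues had a mean over the 6 arrays below it, and it was set this way because the table holds no detection calls. The probe set with the highest mean represented a gene. In bulk samples, more cells with a transcript and more transcript per cell cannot be told apart.

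The treatment label of CD27-CD11b+ replicate 1 names the CD27+CD11b- gate while its title names CD11b+ CD27-, and the title was followed. Cd27 measured 6.96 in that array and 6.47 in CD27-CD11b+ replicate 2, beside 8.03 to 8.92 in the CD27+ arrays. Itgam, which encodes CD11b, measured 9.93 and 9.44 in these arrays, beside 8.69 and 8.01 in CD27+CD11b+ and 6.37 and 5.88 in CD27+CD11b-. A division also crossed the subsets: 3 unnamed probe sets averaged 12.57 to 12.81 in 3 arrays (replicate 2 of CD27+CD11b-, replicate 2 of CD27+CD11b+, replicate 1 of CD27-CD11b+), called the on arrays, but 4.33 to 4.47 in the remaining ones, called the off arrays. Each kind holds 1 array of every subset, so differences were also taken within each kind. Of the NK cell markers, 12 of 12 lay above background, and the log2 of their summed linear level was 15.61 to 15.71 in CD27+CD11b-, 16.04 to 16.07 in CD27+CD11b+ and 16.31 to 16.41 in CD27-CD11b+. Of the 10 B and plasma cell markers measured, 0 lay above background. Other lists had markers above it: 4 of 10 for T cells (Cd3d, Cd3e, Cd3g and Lat), 6 of 9 for dendritic cells and 7 of 11 for neutrophils. The count was 13 of 19 for monocytes and macrophages, 3 of 9 for erythroid cells, 3 of 8 for megakaryocytes and platelets and 1 of 9 for mast cells and basophils. Which cells these transcripts came from was not tested.

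The upstream sequence of Gpx8 is shown because it is the member whose level differed most between the subsets, and that of Gpx7 because it is the other cysteine-type enzyme of the endoplasmic reticulum and stayed near background. RefSeq places Gpx8 on the minus strand of chromosome 13 and Gpx7 on the minus strand of chromosome 4 (GRCm38.p6). Promoter windows were found in the RefSeq table for 9 of the 10 genes. The windows, read 5′ to 3′ on the gene's strand and cut where the annotated gene begins, are chr13:113046431-113046638 for Gpx8 (208 bases, 41.8% G and C) and chr4:108406714-108406963 for Gpx7 (250 bases, 60.4% G and C). Capitals mark a match to any of 4 motifs searched on both strands.
Gpx8: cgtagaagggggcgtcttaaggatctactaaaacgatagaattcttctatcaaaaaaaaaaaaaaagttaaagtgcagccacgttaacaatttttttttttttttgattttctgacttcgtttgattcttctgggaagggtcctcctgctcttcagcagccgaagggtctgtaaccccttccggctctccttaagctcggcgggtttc
Gpx7: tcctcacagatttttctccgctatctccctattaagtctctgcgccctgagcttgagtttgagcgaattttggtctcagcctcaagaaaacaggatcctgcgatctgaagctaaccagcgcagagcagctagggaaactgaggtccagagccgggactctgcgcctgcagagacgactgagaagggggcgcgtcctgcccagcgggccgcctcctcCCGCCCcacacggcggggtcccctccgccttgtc

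The motifs were the antioxidant response element (TGACNNNGC), the T-box site (GGTGTGA), an E-box (CACCTG) and the GC box (GGGCGG). The search covered the whole 250 bases before the start in the promoter table, which for Gpx8 run past the 208 printed into the annotated gene. In them Gpx8 held 0 matches, and Gpx7 held 1 GC box on the opposite strand, beginning 34 bases before the start. Of the 9 genes with a window, Prdx1 was the one with an antioxidant response element match. Among 32536 promoter windows of this length, 10.2% held the antioxidant response element, 3.33% the T-box site, 17.3% the E-box and 33% the GC box. A match here is a run of letters and not a shown binding site, and the absence of one says nothing about a factor.

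Gpx8, a membrane-anchored enzyme of the endoplasmic reticulum that reduces peroxide formed during disulfide formation, was near background in both CD27+ subsets and above it in CD27-CD11b+. It measured 4.24 and 3.89 in CD27+CD11b-, 4.78 and 4.55 in CD27+CD11b+ and 7.74 and 7.37 in CD27-CD11b+. The CD27-CD11b+ arrays lay above all 4 arrays of the CD27+ subsets, with no overlap. The means were 4.06 ± 0.25, 4.66 ± 0.16 and 7.55 ± 0.27 in the same order (SD, n = 2 arrays each). The log2 difference was 2.89 (SE 0.20) between CD27-CD11b+ and CD27+CD11b+, and 3.49 (SE 0.20) between CD27-CD11b+ and CD27+CD11b-. Since both lower subsets were near background, the level in CD27-CD11b+ is given as at least 2.23-fold higher, measured from the background level. Gpx8 had 1 probe set, so no other could be compared with it.

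Gpx8 also had its CD27+CD11b+ arrays above its CD27+CD11b- arrays, by 0.60 (SE 0.20), but both pairs were near background and no fold change is given. The higher level in CD27-CD11b+ was present in both kinds of array: against CD27+CD11b+ the difference was 2.59 over the off arrays and 3.20 over the on arrays, and against CD27+CD11b- it was 3.13 and 3.85. Without CD27-CD11b+ replicate 1, the array whose labels disagree, these differences were 2.70 and 3.30. Gpx7 and Gpx8 are also expressed by fibroblasts. Of 14 stroma and endothelium markers, 13 were near background in every subset, Col1a1, Col3a1, Pdgfra and Cdh5 among them, while Sparc lay above background. The log2 of the summed level of the 14 was 9.0 to 9.03 in CD27+CD11b-, 8.97 to 8.99 in CD27+CD11b+ and 8.95 to 9.01 in CD27-CD11b+. A part of such cells in the Gpx8 values was not tested.

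**Figure D1:**
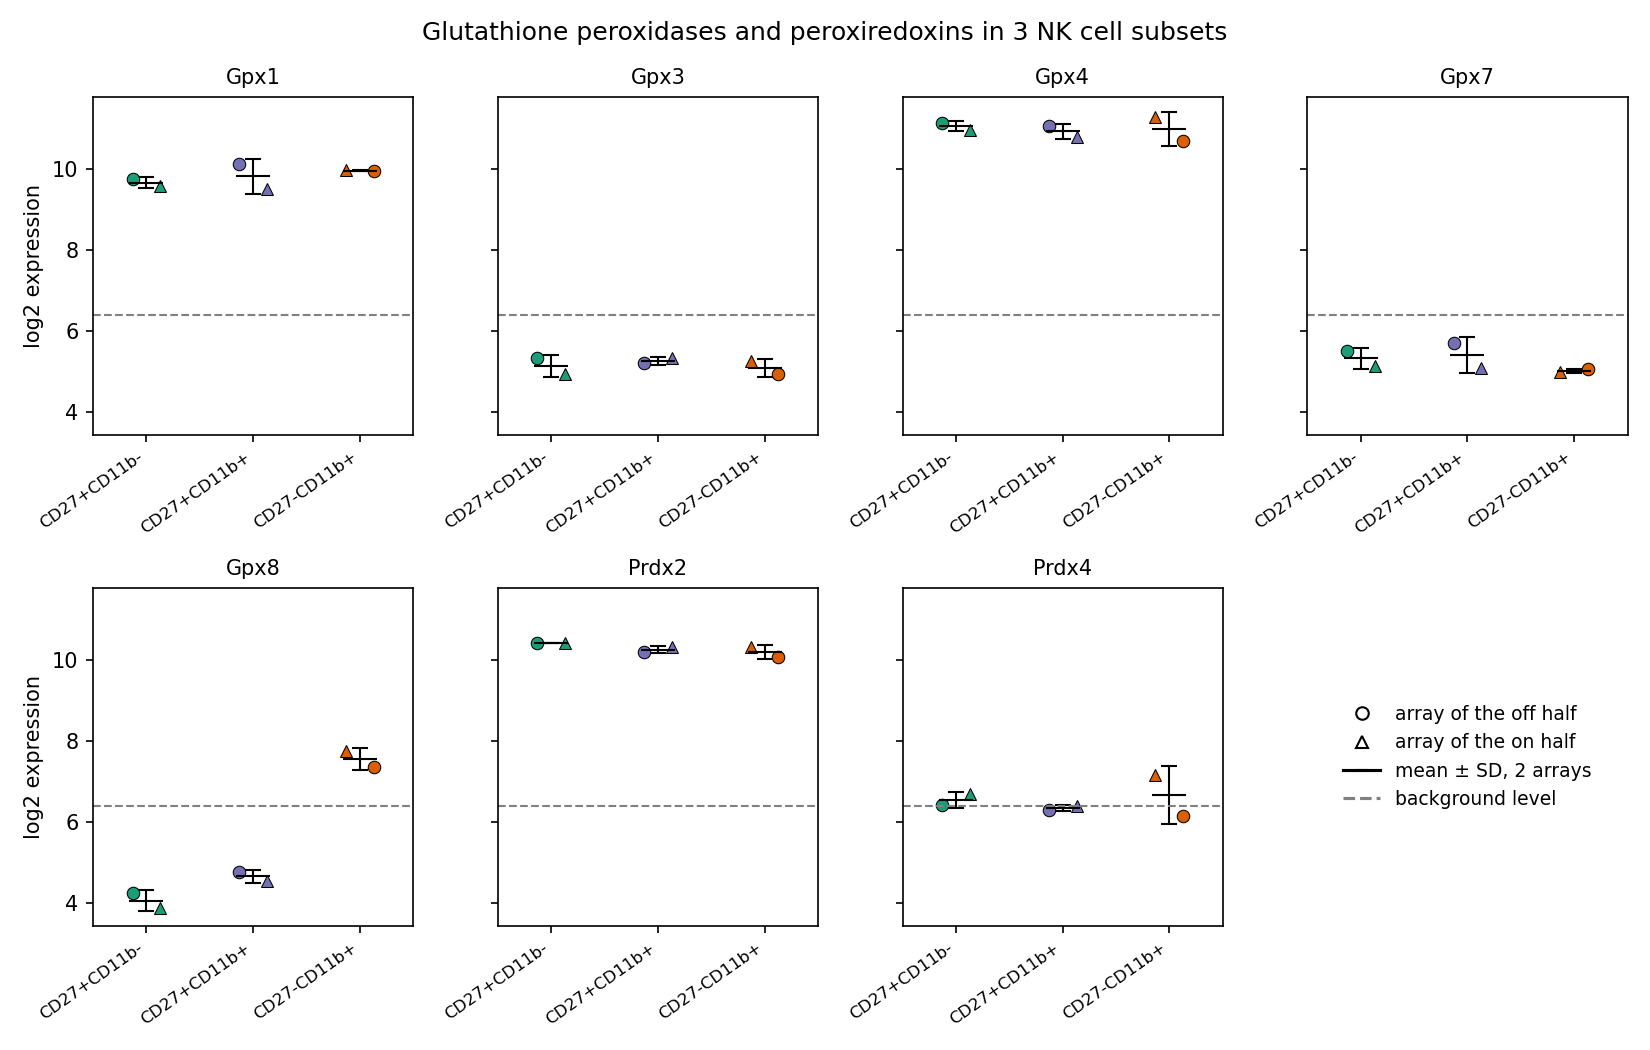
Log2 expression (vertical axis) of the 7 measured family genes in the 3 subsets, with each array as a point (circles, off arrays; triangles, on arrays), bars for mean ± SD of 2 arrays, and a dashed line at the background level of 6.40. Gpx8 crosses the line in CD27-CD11b+ at 7.74 and 7.37, while Gpx3 and Gpx7 stay under it in all 6 arrays.

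The 2 other glutathione peroxidases near background gave no comparable level. Gpx7, the closest relative of Gpx8 in chemistry and compartment, measured 5.50 and 5.14 in CD27+CD11b-, 5.71 and 5.08 in CD27+CD11b+ and 4.98 and 5.05 in CD27-CD11b+. Its CD27-CD11b+ arrays were the lowest of the 6 by small margins, at -0.38 (SE 0.23) against CD27+CD11b+ and -0.30 (SE 0.23) against CD27+CD11b-. Gpx3, the secreted plasma enzyme, lay between 4.92 and 5.32 in all 6 arrays and overlapped in every comparison. Both genes were under the background level throughout, so these values describe array signal near its floor.

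Gpx1 and Gpx4, the abundant selenoenzymes of cytosol and membranes, were well above background, and their subset means differed by at most 0.29. Gpx1 measured 9.75 and 9.56 in CD27+CD11b-, 10.11 and 9.5 in CD27+CD11b+ and 9.96 and 9.93 in CD27-CD11b+. Both CD27-CD11b+ arrays lay above both CD27+CD11b- arrays, by 0.29 (SE 0.21), whereas the CD27+CD11b+ arrays spanned the other 4. Gpx4, by the probe set used, measured 11.12 and 10.95 in CD27+CD11b-, 11.05 and 10.79 in CD27+CD11b+ and 11.27 and 10.67 in CD27-CD11b+, and the subsets overlapped in all 3 comparisons. A second Gpx4 probe set ranged from 10.06 to 10.62, also with overlap. Its difference between CD27-CD11b+ and CD27+CD11b- was 0.22 (SE 0.20), against -0.07 (SE 0.22) on the probe set used, so the sign depended on the probe set.

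Within the on and the off arrays, both selenoenzymes gave opposite signs between CD27-CD11b+ and CD27+CD11b+. Gpx1 differed by -0.18 over the off arrays and by 0.46 over the on arrays, and Gpx4 by -0.38 and 0.48. No direction held in both for these genes in that comparison.

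Among the peroxiredoxins, Prdx2, a cytosolic enzyme abundant in red cells, gave opposite directions on its 2 probe sets. The probe set used measured 10.41 and 10.42 in CD27+CD11b-, 10.19 and 10.31 in CD27+CD11b+ and 10.31 and 10.08 in CD27-CD11b+, a difference of -0.22 (SE 0.15) between CD27-CD11b+ and CD27+CD11b- with no overlap. The second measured 8.26 and 8.20, 8.27 and 7.98, and 8.78 and 8.47 in the same order of subsets, a difference of 0.39 (SE 0.17) also with no overlap. No direction is therefore given for Prdx2. The log2 of the summed level of 9 erythroid markers was 11.94 to 11.99 in CD27+CD11b-, 11.74 to 12.17 in CD27+CD11b+ and 11.47 to 11.60 in CD27-CD11b+, and 6 of the 9, Hba-a1 among them, were near background. Whether red cell RNA has a part in the Prdx2 values was not tested.

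Prdx4, the peroxiredoxin of the endoplasmic reticulum, lay at the edge of detection, with 1 of 4 probe sets above background. That probe set measured 6.41 and 6.69 in CD27+CD11b-, 6.28 and 6.40 in CD27+CD11b+ and 7.17 and 6.15 in CD27-CD11b+. The highest and the lowest value of all 6 arrays were thus the 2 CD27-CD11b+ arrays. A near-background probe set had its CD27-CD11b+ arrays above its CD27+CD11b+ arrays by 0.58 (SE 0.17), and the other 2 overlapped there. In each subset the Prdx4 value was higher in the on array, and so was the summed level of 19 monocyte and macrophage markers, 13 of them above background. That sum was 12.13 to 13.19 in CD27+CD11b-, 12.55 to 13.31 in CD27+CD11b+ and 12.15 to 13.02 in CD27-CD11b+. Of these markers Fcgr1, Ms4a7, Axl, Mertk, Clec7a and Spic were near background. The sums of the neutrophil, dendritic cell, megakaryocyte and platelet, and mast cell and basophil lists were also higher in the on array of each subset. A part of any such cells in the Prdx4 values was not tested.

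The 5 probe sets that list Prdx1 together with Gm21399 cannot be assigned to either gene. Their differences lay between -0.21 and 0.08 for CD27+CD11b+ against CD27+CD11b-, between -0.11 and 0.14 for CD27-CD11b+ against CD27+CD11b+, and between -0.21 and 0.22 for CD27-CD11b+ against CD27+CD11b-. None of the 5 passed an adjusted p of 0.05 in the limma fit over all 45037 probe sets in any comparison. Of all probe sets, 0%, 0.04% and 0.639% passed, in the same order of comparisons. With calls that rare, their absence here does not show that the level was unchanged.

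The counts of members were set beside those of the whole table. In the limma fit over all genes, 0 of the 7 measured members were called at an adjusted p under 0.05 between CD27+CD11b+ and CD27+CD11b-, where 0.121% of all genes were called (0.033% higher, 0.0879% lower). Between CD27-CD11b+ and CD27+CD11b+ 1 was called, Gpx8, where 0.297% of all genes were called (0.17% higher, 0.126% lower), and between CD27-CD11b+ and CD27+CD11b- again Gpx8, where 3.39% were called (2.24% higher, 1.15% lower). Gpx8 was chosen for this pattern, so nothing is read from its call. Of the other 6, 0 were called in any comparison and 0 had an unadjusted p under 0.05, where 3.79%, 11.1% and 18.9% of all genes did in the 3 comparisons. Their differences ranged from -0.21 to 0.15, from -0.38 to 0.32 and from -0.30 to 0.29 in the 3 comparisons, in the same order. With all 45037 probe sets in the fit, 1 of 12 member probe sets was called in each of the last 2 comparisons, that of Gpx8 (0.04% and 0.639% of all probe sets), and 0 in the first (0%, 0 of all probe sets).

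Non-overlap of arrays was common in these data. Between CD27-CD11b+ and CD27+CD11b- the arrays of Gpx1 and Gpx8 lay apart upward and those of Gpx7 and Prdx2 downward, 4 of 7 members, where 51.3% of all genes did not overlap (26.9% higher, 24.3% lower). Between CD27-CD11b+ and CD27+CD11b+ Gpx8 lay apart upward and Gpx7 downward, 2 of 7, against 39.9% of all genes (22.8% higher, 17.1% lower). Between CD27+CD11b+ and CD27+CD11b- Gpx8 lay apart upward and Prdx2 and Prdx4 downward, 3 of 7, against 30.3% (14.7% higher, 15.6% lower). The members' median difference was 0.07, 0.05 and -0.04 in the first, second and outer comparison, beside -0.01, 0.02 and -0.01 for all genes, and the outer median turned to 0.01 with arrays centred on their medians and to 0.08 with the mean of a gene's probe sets. With 1 array left out the 3 medians ranged from -0.15 to 0.25, from -0.19 to 0.18 and from -0.27 to 0.24, the lowest of the last 2 without CD27-CD11b+ replicate 1, so no common direction of the members is given.

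**Figure D2:**
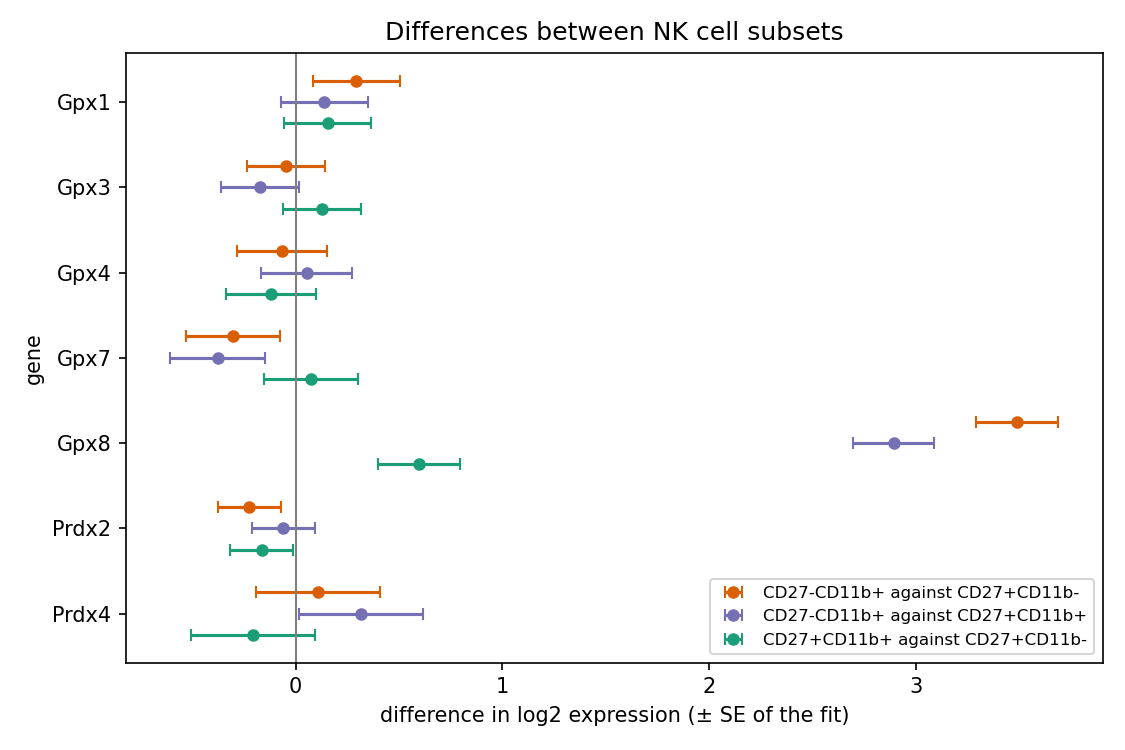
Difference in log2 expression (horizontal axis, ± SE of the limma fit) of the 7 measured family genes (vertical axis) in the 3 comparisons, marked by colour. Gpx8 stands at 2.89 and 3.49 in the comparisons of CD27-CD11b+, while the other 6 genes lie between -0.38 and 0.32.

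Gpx8 lies inside another gene and beside a granzyme gene on chromosome 13. In RefSeq (GRCm38.p6) it spans chr13:113042757-113046430 on the minus strand, within Cdc20b at chr13:113034975-113121019, which lies on the plus strand. Cdc20b is a relative of the mitotic activator Cdc20 known from multiciliated cells. The same span holds Mir449a, Mir449b and Mir449c, the 3 genes on one side of Gpx8, which had no probe set with 1 gene symbol. It also holds Gzma, the granule protease granzyme A, the next gene on the other side. Gzma is followed by the non-coding 1700084D21Rik, also without a probe set with 1 gene symbol, and Gzmk, granzyme K. Probe sets shared by several genes were not searched for these neighbours. Cdc20b was added after its values were seen, as the gene that spans Gpx8.

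Cdc20b was near background in all 6 arrays, so its values describe signal near the floor and no test is given for it. It measured 4.59 and 4.32 in CD27+CD11b-, 4.76 and 4.07 in CD27+CD11b+ and 6.01 and 5.70 in CD27-CD11b+. The CD27-CD11b+ arrays were above the other 4. It was not tested whether the probes of either gene also take up the other's transcript.

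Neither granzyme neighbour differed between subsets by as much as Gpx8, though the Gzma means had the same order of subsets. Gzma measured 13.95 and 13.85 in CD27+CD11b-, 14.10 and 14.29 in CD27+CD11b+ and 14.41 and 14.22 in CD27-CD11b+, a difference of 0.42 (SE 0.16, limma adjusted p = 0.201) between CD27-CD11b+ and CD27+CD11b-. Gzmk was highest in CD27+CD11b+, at 9.26 and 8.38, beside 7.67 and 8.22 in CD27+CD11b- and 7.93 and 8.32 in CD27-CD11b+. Its difference between CD27-CD11b+ and CD27+CD11b+ was -0.69 (SE 0.31, limma adjusted p = 0.472). Neither gene passed the test in any comparison. Gzma lay close to the highest value of each array, 14.44 to 14.72, and whether its differences are compressed there was not tested.

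**Figure D3:**
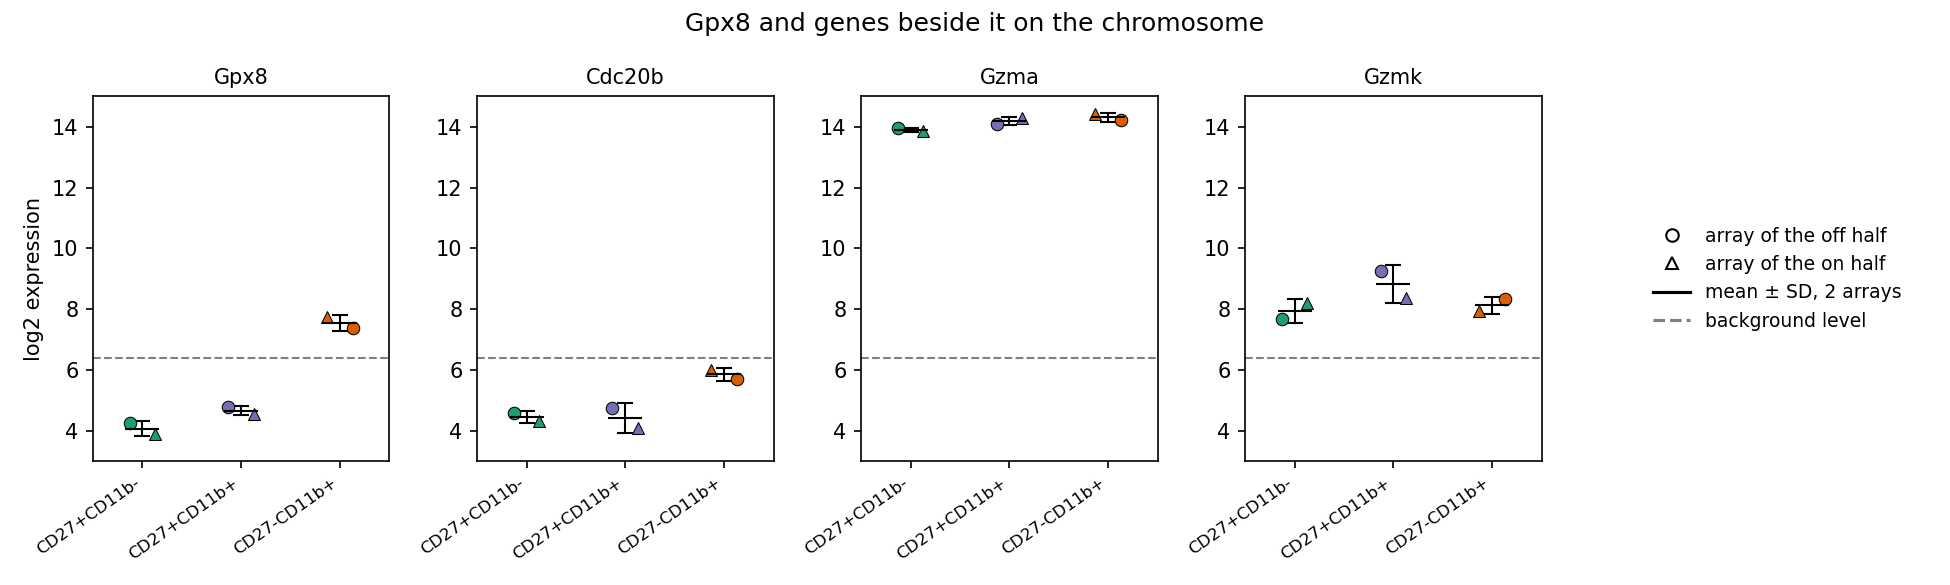
Log2 expression (vertical axis) of Gpx8 and of 3 genes at the same place on the chromosome in the 3 subsets, each array as a point, with mean ± SD of 2 arrays and the background level of 6.40 as a dashed line. Cdc20b is higher in CD27-CD11b+ at 6.01 and 5.70 but stays under the line, and Gzma is between 13.85 and 14.41 in every array.

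The genes whose profile over the 6 arrays was most like that of Gpx8 were Ciao3, Smarcd3, Cnpy4, Mknk1 and Bet1l, by Pearson correlation with Gpx8 among 8730 genes above background (r = 0.9982, 0.9962, 0.9961, 0.996 and 0.9958 over 6 arrays of 3 subsets, so that any gene split between CD27-CD11b+ and the rest scores high; 923 genes exceeded 0.9). Likeness of shape did not mean likeness of size. Smarcd3, a subunit of BAF chromatin remodelling complexes, differed by 3.20 between CD27-CD11b+ and CD27+CD11b-, a value that its choice by likeness to Gpx8 fixes in direction and that is given with no test. It measured 8.30 and 8.19 in CD27-CD11b+ and 5.33 and 4.76 in CD27+CD11b-, so its fold is given from background as at least 3.60-fold higher. Ciao3, a factor of iron-sulfur protein assembly, differed by 0.23, the kinase gene Mknk1 by 0.30, the Golgi transport gene Bet1l by 0.35 and Cnpy4 by 0.51. A second Mknk1 probe set above background gave the opposite sign, -0.20.

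Genes that supply, recycle or accompany the peroxidases were then read from 9 lists with 104 genes, of which 99 were measured. In the limma fit 0 were called between CD27+CD11b+ and CD27+CD11b- and 0 between CD27-CD11b+ and CD27+CD11b+. At an unadjusted p under 0.05 there were 5 of the 99 in the first of these, beside 3.79% of all genes, and 16 in the second, beside 11.1%. Between CD27-CD11b+ and CD27+CD11b-, 3 rose and 1 fell, 4.04% of the 99, beside 3.39% of all genes, and 26 had an unadjusted p under 0.05, beside 18.9%. The 4 were Selenon, Selenop, Txnrd3 and Tfrc.

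Selenon, a selenoprotein of the endoplasmic reticulum linked to calcium handling and redox balance, rose between CD27-CD11b+ and CD27+CD11b-, with CD27+CD11b+ between them. It measured 6.69 and 6.71 in CD27+CD11b-, 7.43 and 7.46 in CD27+CD11b+ and 8.11 and 8.11 in CD27-CD11b+. No arrays of different subsets overlapped. CD27-CD11b+ exceeded CD27+CD11b- 2.65-fold (difference 1.41, SE 0.14, limma adjusted p = 0.00265), by 1.42 over the off arrays and by 1.39 over the on arrays. The steps of 0.74 (limma adjusted p = 0.275) and 0.66 (limma adjusted p = 0.133) did not pass on their own. Selenon kept its call in 13 of 13 alternatives, which included leaving out each of the 6 arrays.

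Selenop and Txnrd3, also selenoproteins, rose between CD27-CD11b+ and CD27+CD11b-. Selenop, the selenium carrier of plasma, which macrophages also express, measured 12.06 and 11.88 in CD27-CD11b+ and 11.04 and 11.30 in CD27+CD11b-, a 1.74-fold difference (0.80, SE 0.17, limma adjusted p = 0.0472). The off arrays gave 0.84 and the on arrays 0.75. Within each subset Selenop and Txnrd3 were higher in the on array, as the monocyte and macrophage sum was. The sums of the neutrophil, dendritic cell, megakaryocyte and platelet, and mast cell and basophil lists were higher there too. The part of any such cells in the Selenop and Txnrd3 values was not tested. Txnrd3, a thioredoxin reductase with a glutaredoxin domain best known from testis, measured 8.0 and 7.41 in CD27-CD11b+ and 6.25 and 6.58 in CD27+CD11b-, a 2.45-fold difference (1.29, SE 0.25, limma adjusted p = 0.0366). Its other 2 probe sets differed by 0.66 and 0.47 in the same direction. Tfrc, the transferrin receptor that brings iron into the cell, fell: it measured 8.42 and 8.73 in CD27-CD11b+ and 9.28 and 9.43 in CD27+CD11b- (-0.78, SE 0.16, limma adjusted p = 0.0445). Dividing cells express Tfrc, and the log2 of the summed level of 29 cell cycle markers, 25 of them above background, was 14.62 and 13.79 in CD27+CD11b-, 14.27 and 13.49 in CD27+CD11b+ and 13.65 in both CD27-CD11b+ arrays. In CD27+CD11b+, Tfrc measured 9.27 and 9.26. The part of dividing cells in the Tfrc values was not tested.

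These last 3 calls lay close to the threshold and were not kept under every omission of 1 array, while the differences kept their sign. An omission also leaves fewer arrays for the estimate of the spread, so a lost call does not single out an array. The Selenop and Tfrc calls were lost without any 1 of the 6 arrays, with differences of 0.66 to 0.93 and of -0.94 to -0.63, and that of Txnrd3 was lost without any 1 of the 4 arrays compared, with differences of 1.0 to 1.58 over the 6 omissions. With the mean of a gene's probe sets the calls of Txnrd3 and Tfrc were lost, with 32 added to the linear values those of Selenop, Txnrd3 and Tfrc, and with arrays centred on their medians that of Tfrc.

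**Figure D4:**
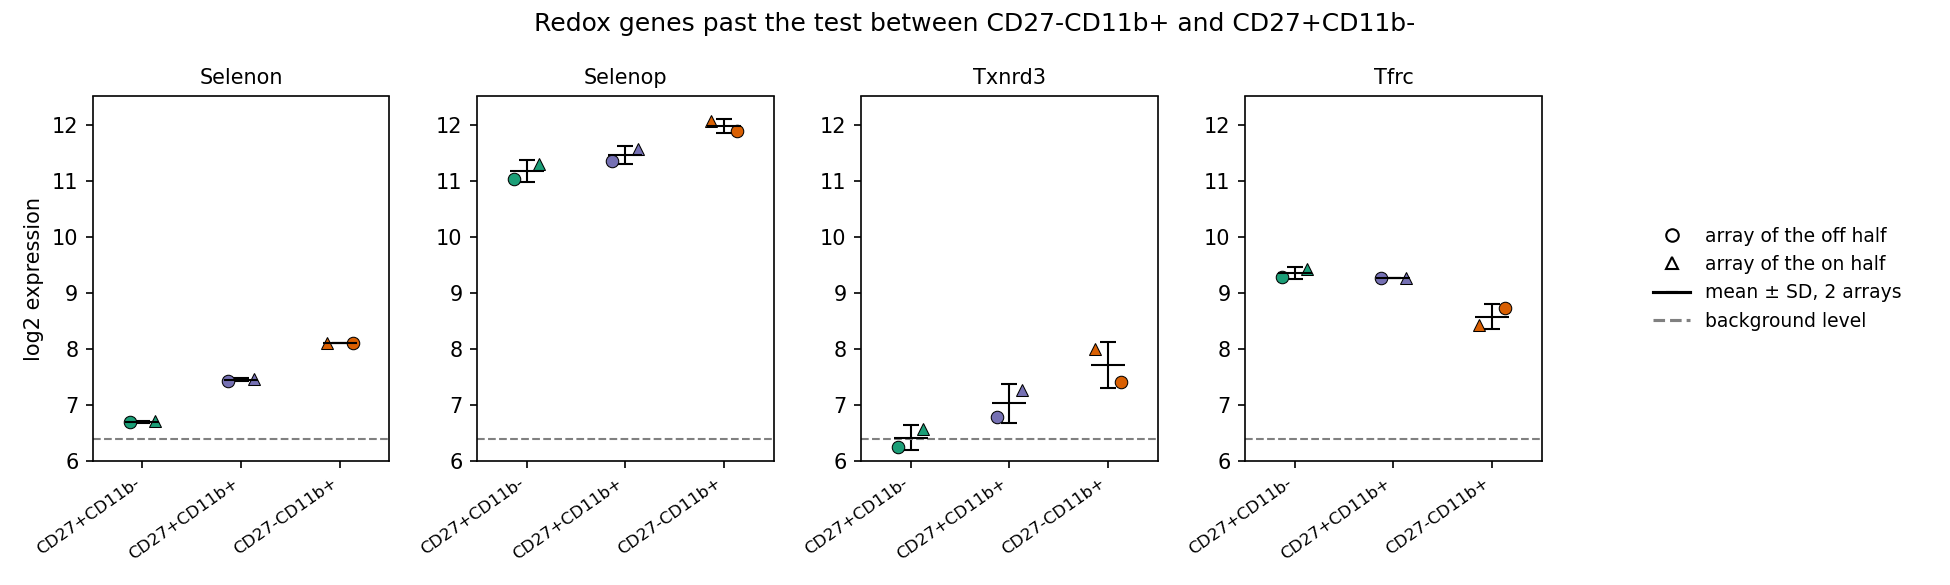
Log2 expression (vertical axis) of Selenon, Selenop, Txnrd3 and Tfrc in the 3 subsets, each array as a point, with mean ± SD of 2 arrays and the background level of 6.40 as a dashed line. Selenon has 6.69 and 6.71 in CD27+CD11b- and 8.11 in both CD27-CD11b+ arrays, and Tfrc is lower in CD27-CD11b+, at 8.42 and 8.73.

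Of the 17 genes for selenocysteine insertion and for selenoproteins, 2 rose and 15 did not pass between CD27-CD11b+ and CD27+CD11b-. Of all genes 2.24% were called higher there. The list's median difference was 0.37, beside -0.01 for all genes and 0.16 for the genes above background in at least 1 subset, with 16 of 17 differences above 0. Arrays lay apart upward in 9 genes and downward in 0, where 26.9% and 24.3% of all genes did so. These shares include genes near background. Selenok, a membrane protein of the endoplasmic reticulum needed for calcium flux in immune cells, gave 0.77 (limma adjusted p = 0.0549) and 1.10 on a second probe set, Msrb1, which repairs oxidised methionine, 0.71 (limma adjusted p = 0.0993), and Selenoo, a mitochondrial selenoprotein, 0.70 (limma adjusted p = 0.163). The selenoenzymes Gpx1 and Gpx4 gave 0.29 and -0.07 in the same comparison.

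The thioredoxin and sulfiredoxin genes had Txnrd3 as the 1 of 12 that passed. Their median was 0.17, beside 0.16 for the genes above background in at least 1 subset. Cytosolic thioredoxin reductase, Txnrd1, measured 9.99 and 10.14 in CD27-CD11b+ and 9.15 and 8.96 in CD27+CD11b-, a difference of 1.01 (SE 0.32, limma adjusted p = 0.138). A second Txnrd1 probe set above background gave -0.51. Txnip, which binds and blocks thioredoxin, differed by 0.60 (limma adjusted p = 0.279) and by 1.55 on another probe set, and Srxn1, which revives over-oxidised peroxiredoxins, by 0.51 (limma adjusted p = 0.371), with -0.27 on another probe set.

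Genes for glutathione synthesis, reduction and glutaredoxins had 0 of 15 past the test in the outer comparison and a median of 0.07. Idh1, a cytosolic source of NADPH, differed by 1.11 (SE 0.31, limma adjusted p = 0.1), Glrx, a glutaredoxin, by 0.46 and Gclm, the regulatory subunit of glutathione synthesis, by 0.39. Of 14 glutathione transferases 0 passed, with a median of 0.01: Mgst2, a membrane transferase with peroxidase activity, gave -0.63 (SE 0.15, limma adjusted p = 0.0682), Gstm4 0.62 and Gstm1 0.57, with 1.04 on another Gstm1 probe set. Among the 4 family genes outside the 10, 0 passed. Prdx3, the mitochondrial peroxiredoxin, differed by 0.32 (SE 0.17, limma adjusted p = 0.364). Gpx2, the intestinal enzyme, differed by -0.71 (SE 0.24, limma adjusted p = 0.165), by -0.15 over the off arrays and by -1.26 over the on arrays. Its mean in CD27-CD11b+, 6.11, was under the background level. Gpx5 and Gpx6 were near background in every subset.

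The lists of peroxide sources and of redox regulation also held few or no calls. Of 11 genes of catalase, superoxide dismutases and the Nrf2 axis 0 passed, with a median of 0.06. Nfe2l2, which encodes the antioxidant regulator Nrf2, differed by 0.56 (SE 0.16, limma adjusted p = 0.105), its inhibitor Keap1 by -0.35 (limma adjusted p = 0.265), with 0.23 on a second probe set near background, and the ferritin gene Fth1 by 0.40 (limma adjusted p = 0.239). Of 6 measured NADPH oxidase subunits 0 passed, with a median of 0.38: Cyba, the membrane subunit, gave 0.98 (SE 0.30, limma adjusted p = 0.131) and the GTPase Rac2 0.67 (limma adjusted p = 0.206), while Nox4 was near background. Of 12 genes of disulfide formation in the endoplasmic reticulum, where Gpx8 works, 0 passed. Their median was 0.19, beside 0.16 for the genes above background in at least 1 subset. The oxidase Ero1b gave -0.49, with -0.10 and 0.10 on 2 other probe sets near background. The disulfide isomerase Txndc5 gave 0.34, with 0.72 on a second probe set above background, and Qsox1 was near background. Of 8 genes of lipid peroxide repair and ferroptosis, Tfrc fell and 7 did not pass, with a median of -0.11. The iron transporter Slc11a2 gave -0.70 (SE 0.16, limma adjusted p = 0.0594), the ubiquinone reductase Aifm2, near background, 0.77 (0.01 and 0.52 on 2 other probe sets), and Alox12 was near background.

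**Figure D5:**
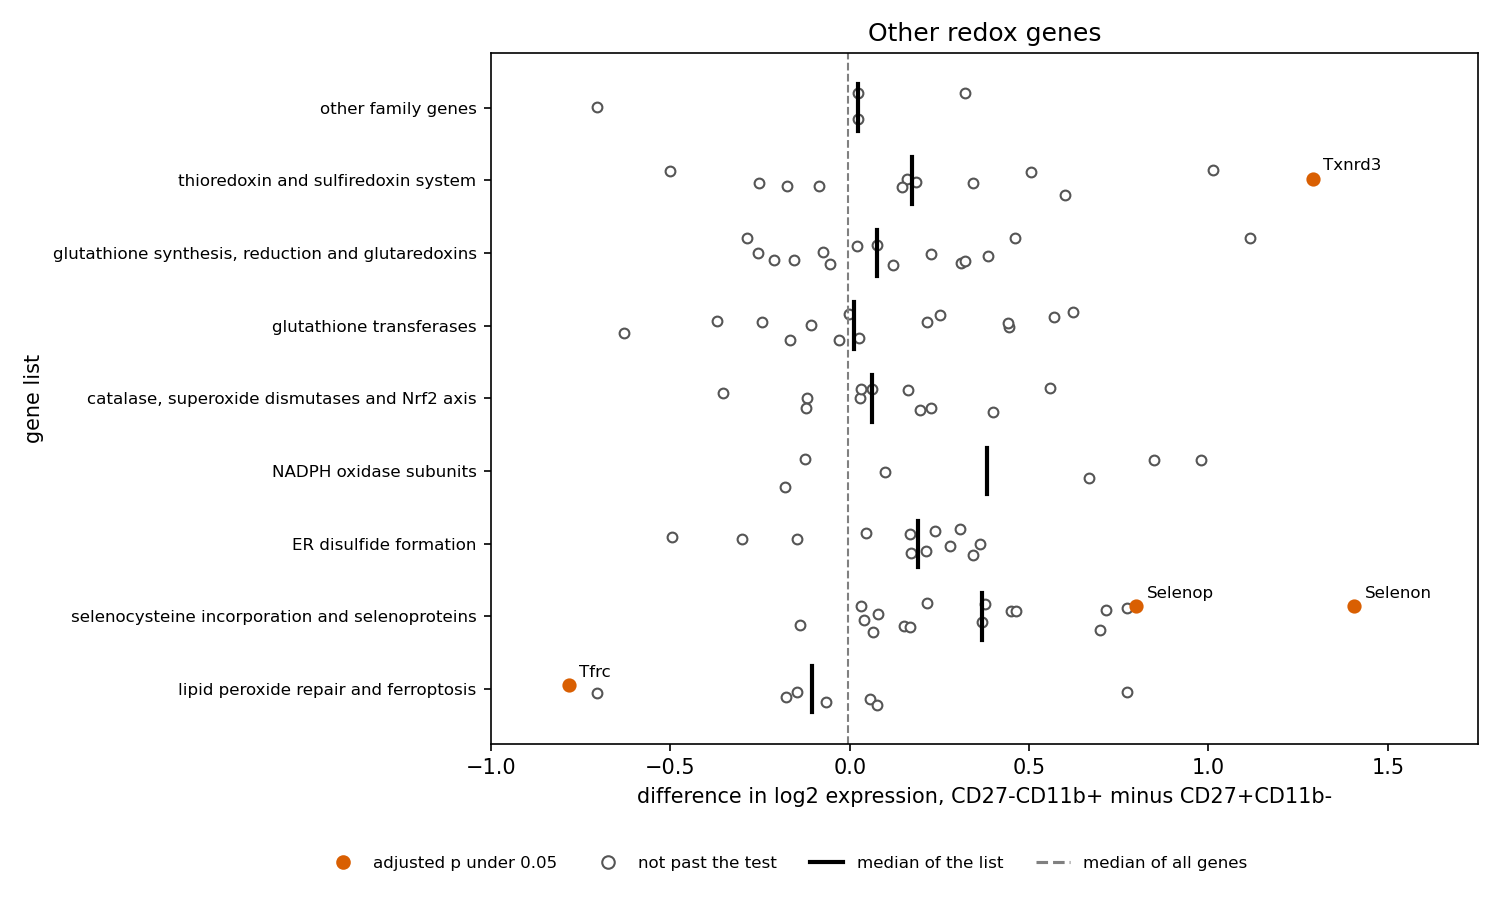
Difference in log2 expression between CD27-CD11b+ and CD27+CD11b- (horizontal axis) for 99 redox genes in 9 lists (vertical axis), with genes past an adjusted p of 0.05 filled and named, the median of each list as a bar and that of all genes as a dashed line. The list medians lie between -0.11 and 0.38, with the NADPH oxidase subunits at 0.38 and the selenoproteins at 0.37, and 3 filled points are positive and 1 negative. The median of the genes above background in at least 1 subset, 0.16, is not drawn.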

How the data were processed

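Affymetrix mouse 430 2.0 arrays of 6 samples were used, grouped by their titles. The deposited log2 values were made by the authors with RMA, per the submitters' processing notes; which version or probe set definition they used is not stated there. RMA gives all arrays 1 common distribution, and small differences of dim genes shrink under it. The log2 scale was read from the range of the values. Of 45101 probe sets, 64 controls were left out; 34945 had 1 symbol in the platform annotation, 932 several and 9160 none, and genes were named from the first kind alone. Each of 18193 genes was represented by its brightest probe set.

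A model with 1 mean per subset was fitted with limma 3.58.1 in R 4.3.3 (3 residual and 4.93 prior degrees of freedom), with Benjamini-Hochberg adjustment over all genes and calls at an adjusted p under 0.05. It was tested on simulated data with independent noise. These held no division into on and off arrays, so the test says nothing about its effect on the calls. Alternatives were the mean of a gene's probe sets, genes above background alone, an intensity trend, centring on array medians, 32 added to linear values, 2 blocks and each array left out. The number of arrays limits the precision. Members, lists and alternatives were chosen with earlier results of these data known. Named genes were the members, redox genes called in any comparison, up to 3 more per list with the largest non-overlapping difference between CD27-CD11b+ and CD27+CD11b-, the 5 genes most like Gpx8 and the 3 genes on either side of it. Promoters and positions came from RefSeq (GRCm38.p6). No 2 arrays were identical.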

Additional observations from a re-analysis of the deposited data

How the results depend on the processing

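Over 13 alternatives in each comparison, 0 members other than Gpx8 were called, with 6 of them tested in each, or 4 where genes near background were left out. The Gpx8 difference ranged from 1.94 to 3.08 between CD27-CD11b+ and CD27+CD11b+, from 2.17 to 3.68 between CD27-CD11b+ and CD27+CD11b-, and from 0.23 to 0.77 between CD27+CD11b+ and CD27+CD11b-. The lowest came from adding 32 to the linear values, which compresses dim genes. For the other 6 members, 206 of 228 values moved by less than the spread between replicates and 22 by more. Calls over all genes depended far more on the setting. In the order CD27+CD11b+ against CD27+CD11b-, CD27-CD11b+ against CD27+CD11b+ and CD27-CD11b+ against CD27+CD11b-, they numbered 22, 54 and 617; 0, 11 and 367 after adding 32; 58, 296 and 1480 with the division into on and off arrays as a block; and 4 to 30, 6 to 53 and 84 to 635 with 1 array left out. With the mean of a gene's probe sets the first count was 11. Redox genes called between CD27-CD11b+ and CD27+CD11b- numbered 4, then 1 after adding 32, 11 with that division as a block, and 1 to 4 with 1 array left out. Member probe sets called over the 3 comparisons numbered 2, and 0 to 2 with 1 array left out, being 0 when replicate 2 of CD27+CD11b- was omitted, 2 when replicate 2 of CD27-CD11b+ was, and 1 for each of the other arrays. The outer count of genes was 84 when CD27-CD11b+ lost its replicate 1 and 230 when it lost its replicate 2. It was 236 and 296 when CD27+CD11b- lost its replicate 1 or its replicate 2. The second count was 6 without CD27-CD11b+ replicate 1, 25 without the other array of that subset, and 13 and 11 without replicates 1 and 2 of CD27+CD11b+. The first was 4, 5, 10, 12 and 12 without single arrays other than CD27+CD11b- replicate 1. Adding 32 left 5 higher and 6 lower calls in the second comparison, beside 31 and 23. The replicate numbers did not pair the samples across all 3 subsets. Deviations of same-numbered arrays correlated at 0.622 between CD27+CD11b- and CD27+CD11b+. Between CD27-CD11b+ and these 2 subsets they correlated at -0.249 and -0.139, in the same order. The pairing that crosses the numbers for CD27-CD11b+ is the block of on and off arrays. With the replicate number as a block, 19, 58 and 760 genes were called, and the calls of Selenop and Txnrd3 were lost. The cause of these shifts was not tested. With 2 arrays a subset, an array left out leaves a lone one that is assumed to vary like the others.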

Other observations

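The redox genes Cybb and Mgst1, chosen after their values were seen, were higher in the on array than in the off array of each subset. Cybb, the catalytic subunit of the phagocyte NADPH oxidase, measured 6.90 in the on array and 4.62 in the off array of CD27+CD11b-. The pair was 7.35 and 5.57 for CD27+CD11b+, then 7.15 and 6.06 for CD27-CD11b+. Mgst1, a microsomal glutathione transferase, measured 5.56, 6.50 and 5.79 in the on arrays in the same order of subsets, against 4.22, 4.55 and 4.87 in the off arrays. The Mgst1 mean was under the background level in every subset, so its values describe signal near the floor. Cybb was under that level in every off array. The summed level of 11 neutrophil markers was also higher in the on array of each subset, at 11.29, 11.48 and 11.30, against 9.52, 10.23 and 10.49 in the off arrays. The sums of the monocyte and macrophage, dendritic cell, megakaryocyte and platelet, and mast cell and basophil lists were higher in the on arrays too. Whether any such cells contribute to the Cybb and Mgst1 values was not tested.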
